A study of Xenopus tropicalis with 16 samples.

Results

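The genes described here build, carry and remodel plasma lipoproteins: apolipoprotein B (APOB), microsomal triglyceride transfer protein (mttp), apolipoprotein A-I (apoa1), lecithin-cholesterol acyltransferase (lcat), hepatic lipase (LIPC) and apolipoprotein H (apoh). They were chosen by name as 6 genes of lipoprotein assembly and plasma lipid handling. The 6 names matched 7 of the 19921 genes in the deposited tables, because mttp is present as mttp.1 and mttp.2. Transcript levels were measured by poly(A)-selected, stranded RNA sequencing in livers of female tropical clawed frogs, Xenopus tropicalis. The 16 libraries form 4 groups of 4 biological replicates: livers of frogs that were not exposed, or that were exposed to benzo[a]pyrene, to triclosan or to a mixture. Of the named agents, benzo[a]pyrene belongs to the polycyclic aromatic hydrocarbons and triclosan is a chlorinated antibacterial. The series title calls the exposure chronic and endocrine-disrupting, and the labels name no strain, age, dose or duration and do not say what the mixture held.

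The liver packs triglyceride and cholesterol into particles built around apolipoprotein B, which MTTP loads with lipid in the endoplasmic reticulum before they leave the cell. It also secretes apolipoprotein A-I, the main protein of high-density lipoprotein (HDL), on which LCAT esterifies cholesterol, and hepatic lipase, which trims lipids from particles in the blood. In egg-laying vertebrates the same organ also exports vitellogenin, the yolk lipoprotein, which belongs to the same large lipid transfer protein family as apolipoprotein B and MTTP.

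Levels are FPKM (fragments scaled to transcript length and library size) rescaled between libraries. A difference is that of mean log2(FPKM + 1), given with its limma standard error (SE), and a gene is called below an adjusted p of 0.05. Depth, read from the deposited confidence intervals, came to between 10.9 and 17.9 M fragments (M, mega) in a library. The fragments so implied assume that the interval width is counting error alone, which was not tested. These implied fragments leave out genes without a valid status in that library. Such genes include alb, valid in 0 libraries, hba1, valid in 5, and hbg1, valid in 12. Shares of implied fragments leave them out too. The FPKM of 271 ribosomal RNA genes made up 10.6% of summed FPKM in mixture library 4, 3.45% in benzo[a]pyrene library 4 and 0.589% to 2.39% in the others. As FPKM is per length, these are not shares of fragments. Summed FPKM also leaves out genes without a valid status, such as hba1 and hbg1, so it does not cover the same genes in every library. Of 19 hepatocyte markers with a valid status in every library, 18 were above 0 throughout, with fgg at a mean of 2043 and ahsg at a mean of 1895. The gut markers cdx1 and cdx2 were listed at 0 in all 16 libraries, and 6 gut epithelium markers together summed to at most 1.05. Sums of other lists were not near 0. Erythroid markers summed to between 387 and 2284 in a library, with hba1 and hbg1 left out for their status. Where valid, hba1 averaged 121100 and hbg1 56970, beside 2043 for fgg. Bile duct markers summed to between 166 and 393 in a library, led by krt19 at a mean of 248. Exocrine pancreas markers summed to between 42.7 and 325, led by amy2a at a mean of 101. The bile duct and pancreas sums rested largely on these leading genes. The next highest means were 2.45 for the bile duct marker epcam and 0.964 for the pancreas marker prss1. Of 7 pancreas markers summed, 1 was above 0 in every library.

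All 7 genes had a valid estimate in all 16 libraries and entered the test, and they lie on 7 different scaffolds. On the FPKM scale, which is per length, mttp.2 was the most abundant at a mean of 1545 over 16 libraries, followed by apoa1 at 358, apoh at 342, LIPC at 277 and APOB at 43.3. The remaining 2 were low, with mttp.1 at 4.33 and lcat at 2.65. In limma none of the 7 genes passed the threshold in any comparison with unexposed livers, nor between the mixture and either single exposure. Calls were also rare over all 6919 genes tested, at 0.0289% for benzo[a]pyrene against unexposed and 0.0% for triclosan and for the mixture against unexposed. They reached 0.0723% for the mixture against benzo[a]pyrene and 0.0% for the mixture against triclosan. In the test of any difference among the 4 groups, 0.0723% of genes were called and again none of the 7, whose smallest adjusted p was 0.486, reached by both mttp.2 and apoh.

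**Figure D1:**
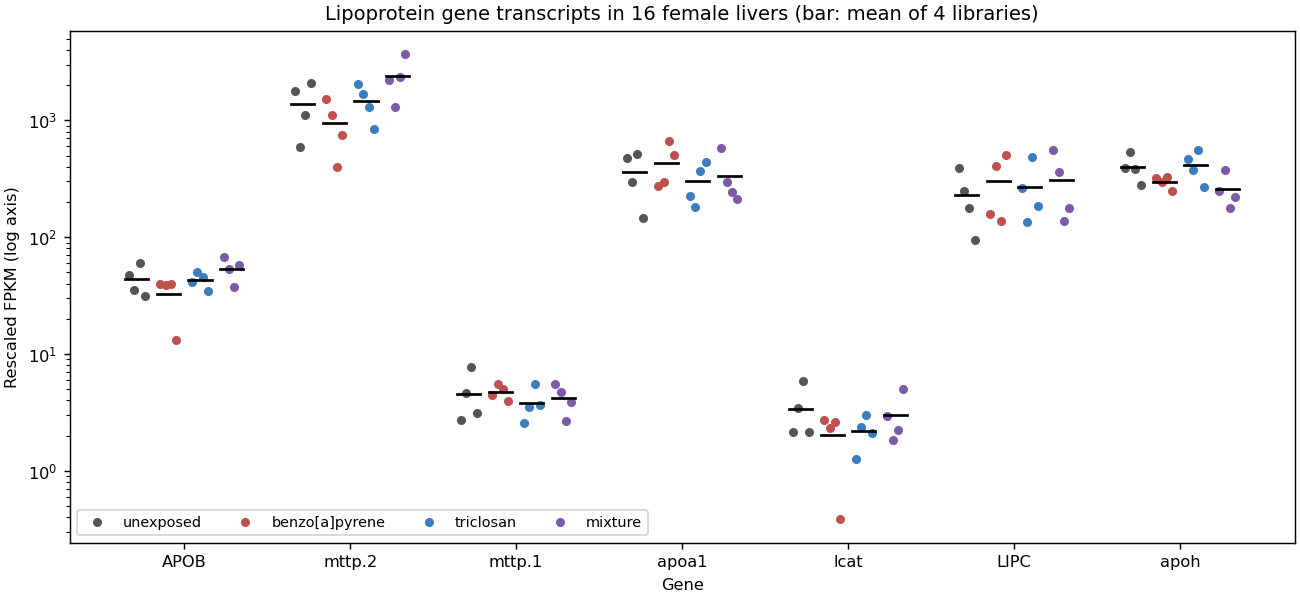
Rescaled FPKM (log axis) of the 7 genes in each of the 16 libraries, in the order unexposed, benzo[a]pyrene, triclosan and mixture; points are libraries and bars are means of 4. Groups overlap for every gene, and a single benzo[a]pyrene library lies low for APOB (13.1) and lcat (0.383).

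APOB encodes the structural protein of the triglyceride-carrying particles that the liver secretes. The gene, ENSXETG00000026768, spans scaffold GL172736.1 from 2275068 to 2306456. Unexposed libraries 1 to 4 had 47.2, 35.0, 60.6 and 31.2. Benzo[a]pyrene libraries 1 to 4 had 39.6, 38.6, 40.1 and 13.1. In the benzo[a]pyrene group 3 libraries lay within a narrow band inside the unexposed range, and library 4 lay below every other library of the study. The triclosan libraries had 41.2, 50.3, 45.8 and 34.5, and the mixture libraries had 68.0, 53.0, 37.1 and 57.4. Triclosan livers stayed within the unexposed range, while 1 mixture library exceeded it, so every exposed group overlapped the unexposed group. In deposited FPKM that library, mixture 1, was at 70.8, below the 81.2 of unexposed library 3.

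Group means of APOB ran from 53.9 ± 12.8 (SD, n = 4) in the mixture through 43.5 ± 13.3 in unexposed and 42.9 ± 6.74 in triclosan livers to 32.8 ± 13.2 after benzo[a]pyrene. Each pair of neighbours in that order overlapped. The log2 difference of benzo[a]pyrene from unexposed was -0.47 (SE 0.33, limma adjusted p = 0.506). Without benzo[a]pyrene library 4, the library with the second-highest ribosomal RNA share, it was -0.09 (adjusted p = 0.931). For triclosan the difference was 0.02 (SE 0.33, adjusted p = 0.998), and for the mixture it was 0.32 (SE 0.33, adjusted p = 0.824). The mixture value was 0.11 without rescaling and 0.18 without unexposed library 4.

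MTTP forms a complex with protein disulfide isomerase and transfers triglyceride to the growing apolipoprotein B particle. The more abundant copy, mttp.2 (ENSXETG00000027557), spans scaffold GL173160.1 from 78657 to 115469. Unexposed libraries 1 to 4 had 1795, 592, 1101 and 2073, and benzo[a]pyrene libraries had 1533, 1101, 399 and 747. Triclosan libraries had 2054, 1682, 1297 and 842, and mixture libraries had 2204, 1311, 2330 and 3660. Mixture livers 1, 3 and 4 were above every library of the other groups, and mixture liver 2 lay among them. The 2 lowest libraries were unexposed 2 and benzo[a]pyrene 3, although in deposited FPKM benzo[a]pyrene 4 (598) lay just below unexposed 2 (603).

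The means of mttp.2 were 2376 ± 969 in the mixture, 1469 ± 520 in triclosan, 1390 ± 671 in unexposed and 945 ± 486 after benzo[a]pyrene (SD, n = 4), with overlap between each pair of neighbours. The log2 difference from unexposed was 0.84 for the mixture (SE 0.47, 95% interval -0.16 to 1.83, limma adjusted p = 0.766). It was -0.57 for benzo[a]pyrene (SE 0.47, adjusted p = 0.587) and 0.16 for triclosan (SE 0.47, adjusted p = 0.995). Mixture livers exceeded benzo[a]pyrene livers by a log2 difference of 1.40 (SE 0.47, 95% interval 0.41 to 2.39, unadjusted p = 0.00862, limma adjusted p = 0.235). Over the 8 libraries the two-sided exact permutation test gave p = 0.0571, where 0.0286 is the smallest value that 4 against 4 allows. That p was 0.667 after Benjamini-Hochberg adjustment over the 35 exact tests made. At an unadjusted p below 0.05, 13.1% of all tested genes differed between mixture and benzo[a]pyrene livers. Without the 2 libraries richest in ribosomal RNA, the smallest limma adjusted p of the 7 genes in that comparison was 0.751. Mixture library 4, the highest for mttp.2, was also the library richest in ribosomal RNA. Without it, the mixture differed from unexposed by 0.60, and without unexposed library 2 by 0.48. The benzo[a]pyrene difference was -0.92 without unexposed library 2 and -0.21 without benzo[a]pyrene library 3.

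Within the liver mttp.2 ranked between place 76 and place 173 among all genes of a library, and it took up 0.346% to 2.39% of the implied fragments. Its neighbours on the scaffold were far lower: TBATA, 8342 bp before it, had a mean of 2.10 (0 to 8.22 over the libraries), and the unnamed gene after it a mean of 0.0692. RefSeq annotation of assembly UCB_Xtro_10.0 also places mttp.2 directly after tbata.

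The second copy, mttp.1 (ENSXETG00000009307, scaffold GL172747.1, 2158198 to 2182343), was far lower. Unexposed libraries had 2.73, 4.66, 7.69 and 3.14, and benzo[a]pyrene libraries had 4.48, 5.57, 5.01 and 3.94. Triclosan libraries had 2.59, 3.51, 5.49 and 3.65, and mixture libraries had 5.57, 4.73, 2.68 and 3.92. All 3 exposed groups lay largely inside the unexposed range, which itself was the widest. Their log2 differences from unexposed were 0.12 for benzo[a]pyrene, -0.16 for triclosan and -0.04 for the mixture (SE 0.26 each, limma adjusted p from 0.861 to 0.986). On the scaffold of mttp.1, dnajb14 lies 33533 bp before it and had a mean of 0.345. The unnamed gene after mttp.1 had a mean of 0.

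The level of mttp.2 divided by that of mttp.1 ran from 79.7 in benzo[a]pyrene library 3 to 935 in mixture library 4. The copies did not move together across libraries (r = -0.39, n = 16). Cufflinks divides reads that fit both copies, and how alike the copies are was not examined, so the split between them is uncertain. Which copy loads apolipoprotein B in these livers was not examined either.

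Apolipoprotein A-I is the main protein of HDL and the activator of LCAT. The gene apoa1, ENSXETG00000003763, lies on scaffold GL172675.1 from 1371851 to 1375343. Unexposed libraries had 479, 298, 513 and 147, and benzo[a]pyrene libraries had 276, 297, 666 and 501. Triclosan libraries had 226, 182, 372 and 441, and mixture libraries had 582, 296, 244 and 214. After rescaling the highest value was in a benzo[a]pyrene liver and the lowest in an unexposed liver, and all groups overlapped. In deposited FPKM the highest was unexposed library 3 (687) and the lowest mixture library 4 (125).

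Mean apoa1 was 435 ± 184 in benzo[a]pyrene, 359 ± 170 in unexposed, 334 ± 169 in mixture and 305 ± 122 in triclosan livers (SD, n = 4), each overlapping the next. The log2 difference from unexposed was 0.34 for benzo[a]pyrene, -0.17 for triclosan and -0.06 for the mixture (SE 0.44 each, limma adjusted p from 0.758 to 0.991). The 95% intervals reached from -0.61 to 1.28 for benzo[a]pyrene, from -1.11 to 0.78 for triclosan and from -1.01 to 0.88 for the mixture, so the data leave room for sizeable differences either way.

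On its scaffold apoa1 lies in a cluster with apoa4, apoa5 and an unnamed gene whose identity was not examined. The cluster is bordered by sik3 and zpr1, whose means were 0.0972 and 1.05. The unnamed gene, ENSXETG00000033423, starts 9815 bp after apoa1 and was the most abundant of the cluster, with 1376 to 9328 over the 16 libraries. Next comes apoa4, an apolipoprotein of triglyceride-rich particles and HDL in mammals, with 490 to 2557. It is followed by apoa5, which in mammals promotes triglyceride clearance by lipoprotein lipase, with 9.85 to 104. The neighbours differed in how they followed apoa1 across libraries, with r of 0.80 for apoa5, 0.30 for apoa4 and -0.18 for the unnamed gene (n = 16 each). RefSeq annotation lists apoa1, apoa4 and apoa5 in the same order between sik3 and zpr1. Between apoa1 and apoa4 it also lists a protein-coding gene, LOC100135198, and a long non-coding RNA gene. Whether the unnamed gene is either of these was not examined.

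The unnamed gene had 7030, 4368, 8004 and 3640 in unexposed libraries and 4742, 2216, 3965 and 1376 in benzo[a]pyrene libraries. Benzo[a]pyrene library 4 was again the lowest of the study, and the 2 groups overlapped. Its mean was 5760 ± 2088 without exposure, 3075 ± 1549 with benzo[a]pyrene, 6410 ± 2732 with triclosan and 6709 ± 596 with the mixture (SD, n = 4). The log2 difference of benzo[a]pyrene from unexposed was -0.99 (SE 0.41, limma adjusted p = 0.296). In the same comparison apoa5 had a difference of 0.81 (SE 0.49, adjusted p = 0.449) and apoa4 one of -0.39 (SE 0.46, adjusted p = 0.721).

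**Figure D2:**
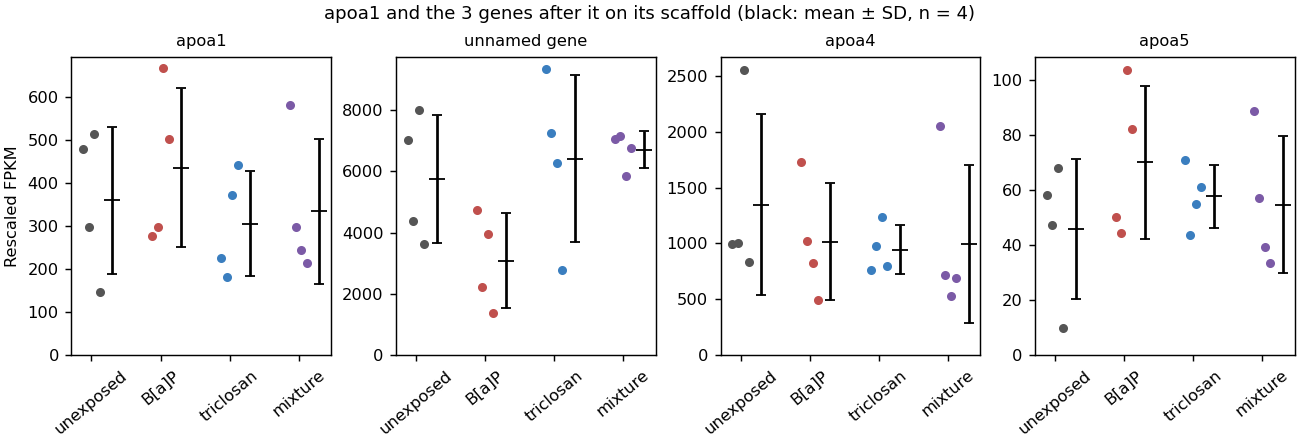
Rescaled FPKM (linear axes from 0, one scale per gene) of apoa1 and the 3 genes that follow it on its scaffold; coloured points are libraries, black marks are mean ± SD of 4, and B[a]P is benzo[a]pyrene. The unnamed gene averages 3075 with benzo[a]pyrene and 5760 without exposure, whereas apoa5 is highest, at 104, in a benzo[a]pyrene liver.

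LCAT, which esterifies the cholesterol of HDL, was the least abundant of the 7. The gene lcat, ENSXETG00000003085, spans scaffold GL172642.1 from 2859078 to 2865729. Unexposed libraries had 2.15, 3.47, 5.85 and 2.17, and benzo[a]pyrene libraries had 2.74, 2.33, 2.63 and 0.383. Triclosan libraries had 1.26, 2.36, 3.00 and 2.11, and mixture libraries had 2.92, 1.83, 2.25 and 4.99. The lowest value was in benzo[a]pyrene library 4, as for APOB, where it rests on 8 implied fragments, and all groups overlapped.

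Means of lcat were 3.41 ± 1.74 in unexposed, 3.00 ± 1.40 in mixture, 2.18 ± 0.72 in triclosan and 2.02 ± 1.11 after benzo[a]pyrene (SD, n = 4), with overlap at each step. The log2 difference from unexposed was -0.57 for benzo[a]pyrene (SE 0.34, limma adjusted p = 0.439), the smallest adjusted p of the 7 genes in that comparison. Leaving out benzo[a]pyrene library 4 brought it to -0.23 (adjusted p = 0.848). For triclosan it was -0.42 (SE 0.34, adjusted p = 0.982) and for the mixture -0.12 (SE 0.34, adjusted p = 0.945). At this level the added 1 in the log scale makes differences smaller than those of the FPKM themselves.

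Hepatic lipase hydrolyses triglyceride and phospholipid of remnant particles and HDL. LIPC, ENSXETG00000032604, spans scaffold GL172944.1 from 941845 to 1004915. Unexposed libraries had 390, 248, 179 and 93.9, and benzo[a]pyrene libraries had 158, 410, 137 and 505. Triclosan libraries had 265, 135, 490 and 185, and mixture libraries had 556, 362, 138 and 177. Each group held both high and low libraries, and no group stood apart from another.

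LIPC averaged 308 ± 192 with the mixture, 303 ± 183 with benzo[a]pyrene, 269 ± 157 with triclosan and 228 ± 125 without exposure (SD, n = 4), overlapping throughout. Its log2 differences from unexposed were 0.37, 0.25 and 0.40 for benzo[a]pyrene, triclosan and the mixture (SE 0.57 each, limma adjusted p from 0.797 to 0.990). These values moved with single libraries. Without unexposed library 4, the lowest of all, the differences were 0.0020 for benzo[a]pyrene, -0.12 for triclosan and 0.033 for the mixture. The benzo[a]pyrene difference was 0.045 without benzo[a]pyrene library 4, and the mixture difference was 0.19 without rescaling. The within-group SD of its log2 values was 0.88, higher than in 94.8% of tested genes. By the same measure mttp.2 (0.71) was higher than 90.6% of tested genes and apoa1 (0.68) than 88.7%, whereas mttp.1 and apoh (0.38 each) were higher than 58.1% and 57.5%. For 300 tested genes of like level the median SD was 0.45 beside LIPC, 0.42 beside mttp.2 and 0.45 beside apoa1. The share of implied fragments taken by LIPC varied less than its FPKM, from 0.0101% to 0.0297% beside 93.9 to 556. It was 0.0187% in mixture library 1 and 0.0188% in mixture library 4, whose FPKM were 556 and 177. The SD of LIPC is that of FPKM, and why the 2 measures differ was not tested.

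Apolipoprotein H, also known as beta-2-glycoprotein I, is a plasma protein that binds anionic phospholipids. The gene apoh, ENSXETG00000025262, spans scaffold GL173853.1 from 7389 to 28012. Unexposed libraries had 389, 538, 385 and 282, and mixture libraries had 251, 373, 179 and 222. Of the 4 mixture libraries 3 lay below all unexposed libraries in FPKM, and mixture library 2 overlapped them. By share of implied fragments the separation was smaller. Mixture libraries 1 and 3 (0.00965% and 0.00756%) lay below all unexposed libraries, whose lowest was 0.0101%. Mixture libraries 2 and 4 (0.0125% and 0.0111%) lay within the unexposed range. Why the 2 measures differ was not tested. In FPKM, benzo[a]pyrene libraries had 321, 295, 326 and 246, and triclosan libraries had 468, 378, 555 and 271. Benzo[a]pyrene livers were close to each other and below the middle of the unexposed range, and triclosan livers spanned it.

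Its means ran from 418 ± 122 in triclosan and 398 ± 105 in unexposed to 297 ± 36.5 after benzo[a]pyrene and 256 ± 83.3 in mixture livers (SD, n = 4), each overlapping the next. The log2 difference of the mixture from unexposed was -0.65 (SE 0.27, 95% interval -1.23 to -0.07, unadjusted p = 0.0305, limma adjusted p = 0.731). The two-sided exact permutation p was 0.0571, or 0.667 after adjustment over the 35 exact tests. In that comparison 6.56% of all tested genes had an unadjusted p below 0.05. Against triclosan the mixture differed by -0.71 (SE 0.27, unadjusted p = 0.0202, limma adjusted p = 0.998). Benzo[a]pyrene differed from unexposed by -0.39 (SE 0.27, adjusted p = 0.504) and triclosan by 0.06 (SE 0.27, adjusted p = 0.998). Summed hepatocyte markers were 6830 to 13110 in mixture and 7712 to 16400 in unexposed livers. Of 18 tested hepatocyte markers 15 had a negative log2 difference (median -0.29), as did 52.2% of all tested genes. Macrophage markers were below 0 in 3 of 3 (median -0.83), with sums of 32.4 to 59.6 in mixture and 46.7 to 124 in unexposed livers, and granulocyte markers in 3 of 3 (median -0.31). Erythroid markers were split, with 4 below and 4 above. Bile duct markers had 3 below and 1 above, and lymphocyte and fat markers each had 2 below and 1 above. The 1 tested exocrine pancreas marker was above 0 (0.84). Whether these levels bear on apoh was not tested, and in bulk liver fewer cells of a type and less RNA per cell cannot be told apart.

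**Figure D3:**
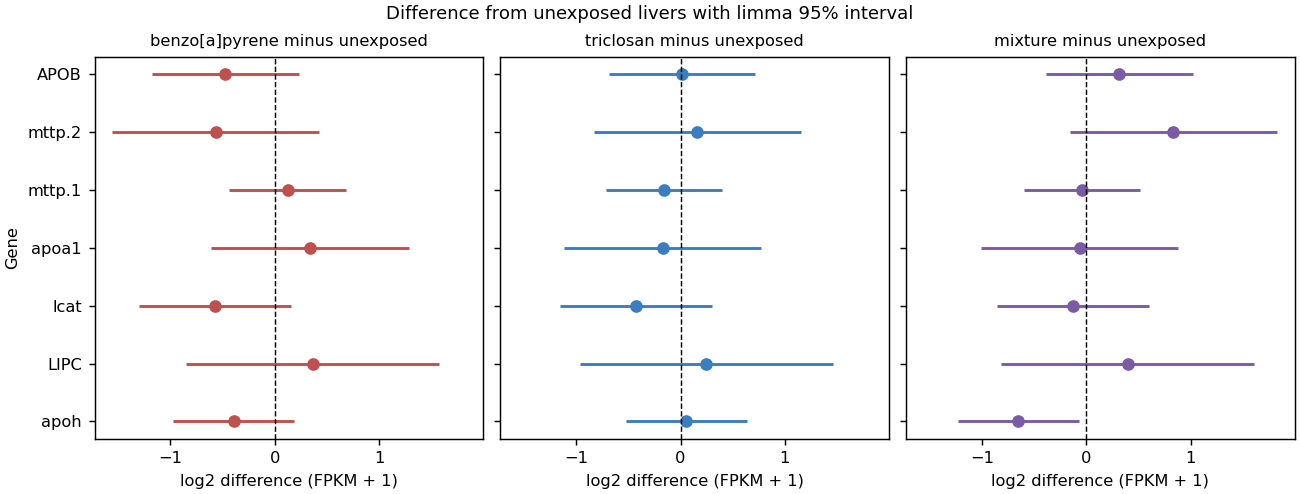
log2 differences of FPKM + 1 from unexposed livers for the 7 genes in each exposure; points are limma estimates and lines are their 95% intervals, not adjusted for the number of genes. All intervals cross 0 except that of apoh in the mixture, -1.23 to -0.07.

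Read side by side, the 7 genes had no shared direction. For benzo[a]pyrene 4 were below 0 and 3 above, where 49.6% of all tested genes were below and 50.4% above. For triclosan 3 were below and 4 above (50.1% and 49.8% of all tested genes). For the mixture 4 were below and 3 above (52.2% and 47.8% of all tested genes). The exposures share the unexposed libraries, so these counts are not independent of each other. At an unadjusted p below 0.05 the limma fit held 0 of the 7 genes for benzo[a]pyrene, where it held 14.5% of all tested genes, 0 for triclosan (4.36%) and 1, apoh, for the mixture (6.56%). None of the 7 had groups without overlap in any comparison with unexposed livers, whereas 7.75% of all tested genes did for benzo[a]pyrene, 2.79% for triclosan and 4.52% for the mixture. The same was true of the mixture against benzo[a]pyrene (5.55% of all genes) and against triclosan (2.53%).

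Across the 16 libraries APOB and lcat were the most alike of the 21 pairs, with r = 0.74, and r = 0.76 once group means were removed. Both were lowest in benzo[a]pyrene library 4. The opposite end was taken by mttp.2 and apoa1, with r = -0.56 over the libraries. APOB and mttp.2 had r = 0.42, which was 0.12 within groups. All libraries share the same rescaling, and these coefficients describe 16 libraries without a test.

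Outside the 7, the tested gene with a symbol most like APOB was coagulation factor V, f5 (r = 0.91), followed by the mitochondrial glutamate carrier slc25a22 (r = 0.90) and the carbonic anhydrase ca6 (r = 0.87). For mttp.2 the closest were ext1 (r = 0.83), the vitellogenin vtga2 (r = 0.80) and smug1 (r = 0.79). For mttp.1 they were mtss1.2 (r = 0.81), XB-GENE-5731324 (r = 0.80) and ADTRP (r = 0.78). The closest to apoa1 was its cluster neighbour apoa5 (r = 0.80), followed by prtfdc1 (r = 0.80) and the mRNA decay factor zfp36 (r = 0.80). For lcat they were uqcc2 (r = 0.89), acp1 (r = 0.85) and ncoa2 (r = 0.80). LIPC had weaker nearest genes: st8sia2 (r = 0.79), the glycolytic enzyme eno1 (r = 0.74) and g6pc2 (r = 0.72). Closest to apoh were slc9a3r1 (r = 0.85), idh3a (r = 0.85) and pemt, which makes phosphatidylcholine (r = 0.82). Each r is over 16 libraries and was picked as the highest among all tested genes with a symbol.

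The wider pathway was read from 71 other symbols in 6 lists, of which 56 were found, as 57 genes, and 37 were tested. No gene of these lists was called in any comparison, with a smallest limma adjusted p of 0.140 for benzo[a]pyrene, 0.965 for triclosan and 0.763 for the mixture against unexposed. In benzo[a]pyrene livers 33 of the 37 had a log2 difference below 0 (89.2%), with a median of -0.41, beside a median of 0.00 and 49.6% below 0 over all tested genes. The split was 22 of 37 below 0 for triclosan (median -0.08) and 18 of 37 for the mixture (median 0.05). With a single benzo[a]pyrene or unexposed library left out, between 29 and 33 of the 37 were below 0, and 29 did without the 2 libraries richest in ribosomal RNA. Among genes reaching an FPKM of at least 5, 23 of 24 were below 0, beside 57.7% of all genes at that level. The genes vary together across libraries, so the count describes these livers and carries no test.

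Markers of several cell types also lay to one side of 0 in this comparison. All 18 tested hepatocyte markers were below 0 for benzo[a]pyrene, with a median of -0.52, and all 8 tested erythroid markers were above 0, with a median of 0.78. Bile duct markers were below 0 in 4 of 4 (median -0.45) and granulocyte markers in 3 of 3 (median -0.82), whereas lymphocyte markers were above 0 in 3 of 3 (median 0.71). Macrophage markers (1 below, 2 above) and fat markers (2 below, 1 above) were split. None of these markers was called (smallest limma adjusted p = 0.0794 for hepatocyte and 0.106 for erythroid markers). The summed hepatocyte markers were 5305 to 9992 in benzo[a]pyrene and 7712 to 16400 in unexposed livers, with alb left out for its status. Summed erythroid markers were 929 to 2284 in benzo[a]pyrene and 443 to 755 in unexposed livers, led by alas2 at a mean of 462 and hbd at a mean of 371, with hba1 and hbg1 left out for their status and 1 of 2 epb42 genes listed at 0. The 2 groups overlapped in the hepatocyte sum and not in the erythroid sum, which leaves out the far more abundant hba1 and hbg1. Where valid, hbg1 averaged 62470 ± 35120 (SD) with benzo[a]pyrene and 46070 ± 18270 in unexposed livers. For hba1 there was no valid value with benzo[a]pyrene. Lymphocyte marker sums were low in both, at 2.93 to 9.02 in benzo[a]pyrene and 1.59 to 2.49 in unexposed livers. The part these marker levels play in the pathway count was not tested.

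By role, the assembly and export list had 11 of 12 tested genes below 0 for benzo[a]pyrene, with a median of -0.49. Its most abundant gene, p4hb, the partner subunit of MTTP, had 37.3, 22.3, 80.9 and 85.0 in unexposed libraries against 28.0, 27.9, 25.6 and 11.5 with benzo[a]pyrene. The groups overlapped through unexposed library 2, and the log2 difference was -1.12 (SE 0.45, limma adjusted p = 0.287). For cideb, a lipid droplet protein that helps lipidate the particles, it was -0.55 (SE 0.31, adjusted p = 0.414).

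Transcription regulators had 7 of 8 below 0. The liver factor cebpa had 43.2, 41.5, 56.9 and 46.8 in unexposed libraries against 25.1, 15.2, 23.9 and 8.24 with benzo[a]pyrene. All benzo[a]pyrene livers lay below all unexposed livers, and the difference was -1.44 (SE 0.39, limma adjusted p = 0.140). Groups without overlap, in either direction, were found for 7.75% of all tested genes in this comparison. The bile acid receptor NR1H4 had a difference of -0.34 (SE 0.24, adjusted p = 0.519).

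Lipases and their regulators had 4 of 4 below 0. Lysosomal lipase lipa differed by -0.30 (SE 0.25, limma adjusted p = 0.592).

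Among receptors and efflux genes 7 of 8 were below 0. The low-density lipoprotein receptor ldlr differed by -0.43 (SE 0.43, limma adjusted p = 0.666). Of the other apolipoproteins 3 of 4 were below 0: apom, an HDL protein that carries sphingosine-1-phosphate, had a difference of -0.84 (SE 0.37, adjusted p = 0.322), while apoa5 lay above 0. The only tested gene of the HDL enzyme list, pon2, differed by -0.19 (SE 0.35, adjusted p = 0.832).

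**Figure D4:**
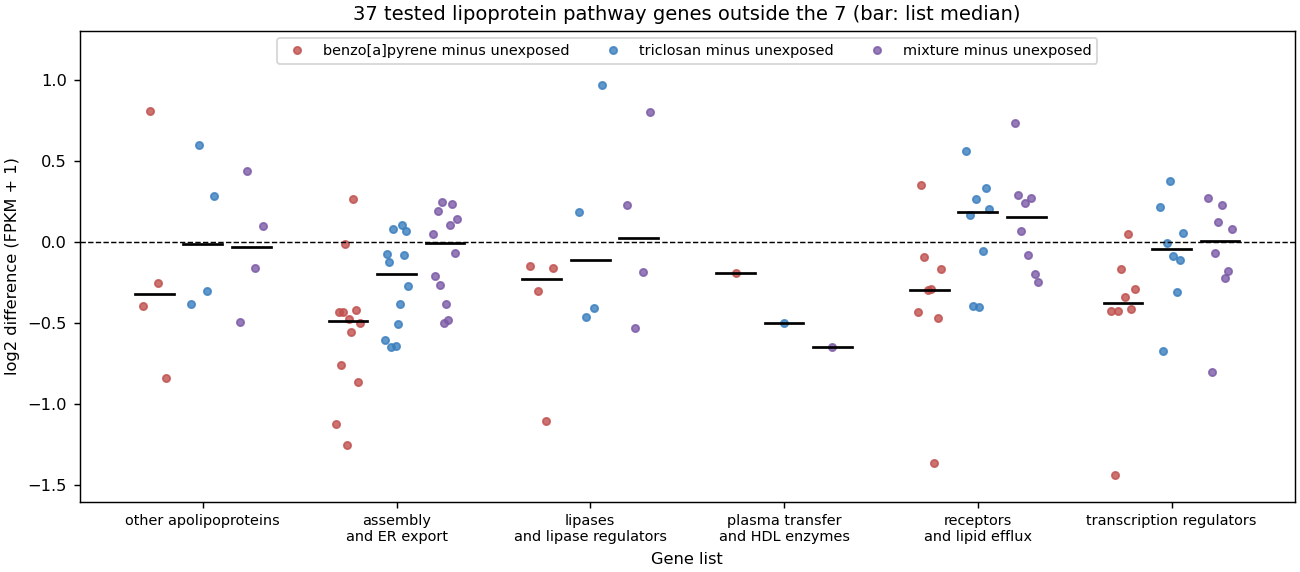
log2 differences of FPKM + 1 from unexposed livers for the 37 tested pathway genes in 6 lists; points are genes, coloured by exposure, and bars are list medians. For benzo[a]pyrene 33 of 37 points lie below 0, for triclosan 22 and for the mixture 18.

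Between mixture and benzo[a]pyrene livers, which share the benzo[a]pyrene libraries with the comparison above, 29 of the 37 pathway genes were above 0 (78.4%, median 0.29), where 47.0% of all tested genes were. None was called (smallest limma adjusted p = 0.189). APOB and mttp.2 lay in the same direction, APOB by 0.79 (SE 0.33, unadjusted p = 0.0300, adjusted p = 0.331). For APOB the two-sided exact permutation p was 0.114, or 0.714 after adjustment over the 35 exact tests. In this comparison 13.1% of all tested genes had an unadjusted p below 0.05. The APOB difference includes benzo[a]pyrene library 4, the low library at 13.1. The other 5 genes were at 0.45 for lcat, 0.03 for LIPC, -0.16 for mttp.1, -0.26 for apoh and -0.40 for apoa1. In this comparison 12 of 18 hepatocyte markers were above 0 and 8 of 8 erythroid markers below 0. Macrophage markers were below 0 in 3 of 3 (median -0.70) and granulocyte markers above 0 in 3 of 3 (median 0.36). Bile duct markers had 1 below and 3 above, fat markers 1 below and 2 above, and lymphocyte markers 2 below and 1 above. The 1 tested exocrine pancreas marker was above 0 (0.46). What part these markers play in the count was not tested. Between mixture and triclosan livers 20 of 37 pathway genes and 6 of the 7 were above 0, where 50.6% of all tested genes were above and 49.4% below. Only apoh had an unadjusted p below 0.05 there, as did 2.89% of all tested genes, and the smallest adjusted p of the 7 was 0.998.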

How the data were processed

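Female Xenopus tropicalis livers were sequenced as 16 libraries, 4 per group, grouped by the treatment in the labels. The authors deposited gene-level FPKM from Cufflinks, with confidence limits and a status for each gene, per the file headers. Tools named in the submitters' processing notes, without roles, are Cufflinks 0.0.7, TopHat, TopHat2 0.6, Bowtie 0.12.7 and Trimmomatic 0.32.1. No label or header names the genome build. The tables hold no read counts, and the confidence limits were used to infer depth, on the assumption that they hold counting error alone.

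Values with a status other than OK (54 values of 10 genes) were set to missing. FPKM were rescaled by a median-of-ratios factor over 3959 genes of FPKM at least 1 in every library and analysed as log2(FPKM + 1), which understates differences of low genes. A gene entered the test if 4 or more libraries reached an FPKM of 1 and each group had 3 or more values, which left 6919. The test was that of limma 3.58.1, run in R 4.3.3 (trend and robust options, 12 residual degrees of freedom, two-sided), with Benjamini-Hochberg adjustment over all 6919. The fit was tested on simulated data. Exact permutation tests used scipy 1.17.1. Symbols of all 7 genes matched RefSeq (UCB_Xtro_10.0), which was used for names and gene order only; no sequences are shown.

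The genes, lists and alternatives were chosen with earlier results of these data known. Beside the 7, the text names the 2 most abundant tested genes of each pathway list, the 3 genes most like each of the 7, the 2 most abundant markers of each marker list that a result touches, and genes called in a comparison, of which there were none. Some genes that this rule names are not reported here. The neighbours of apoa1 and mttp.2 and the markers named for status or a level at 0 were added after their values were seen. Alternatives changed the rescaling, pseudocount, filter, block, groups fitted and libraries.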

Additional observations from a re-analysis of the deposited data

Results flagged for a closer look

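Among 28 groups of 4 libraries (7 genes in 4 groups), 1 held a library far from the others. APOB in benzo[a]pyrene library 4 was 13.1, while the other 3 libraries of that group were 38.6 to 40.1. The gap to the nearest library was 0.945 of the range of the group, above Dixon's 95% critical value for 4 libraries. Chance flags about 1 group in 20. In the same library lcat was 0.383, and its gap lay just under that value. Ribosomal RNA made up 3.45% of summed FPKM in this library, and its part in the APOB level was not tested.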

How the results depend on the processing

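None of the 7 genes was called in any of 103 alternative counts, and of 333 alternative values for the differences from unexposed livers 305 kept their sign, none passed the threshold and 28 changed sign. The sign changes concerned 11 of 21 values, all with intervals that cross 0. Without rescaling, which moved the median of all genes to -0.16 for the mixture against unexposed, the triclosan difference was -0.0325 for apoh and -0.0731 for APOB. Without the 2 libraries richest in ribosomal RNA the mixture difference of apoa1 was 0.11. Leaving out 1 library at a time gave, for benzo[a]pyrene, -0.0394 to 0.56 for apoa1 and -0.0420 to 0.36 for mttp.1. For triclosan it gave -0.55 to 0.0554 for apoa1, -0.32 to 0.0819 for mttp.1, -0.10 to 0.25 for apoh, -0.12 to 0.19 for APOB, -0.20 to 0.40 for mttp.2 and -0.12 to 0.57 for LIPC. For the mixture it gave -0.34 to 0.11 for lcat, -0.44 to 0.16 for apoa1 and -0.20 to 0.20 for mttp.1. The cause of these changes was not tested. The values that kept their sign ranged, with 1 library left out, from -0.71 to -0.23 for lcat, -0.55 to -0.24 for apoh, -0.61 to -0.09 for APOB, -0.92 to -0.21 for mttp.2 and 0.0020 to 0.68 for LIPC in benzo[a]pyrene livers. They ranged from -0.56 to -0.19 for lcat in triclosan livers, and in mixture livers from -0.85 to -0.49 for apoh, 0.18 to 0.49 for APOB, 0.48 to 1.09 for mttp.2 and 0.033 to 0.71 for LIPC.

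Counts over all genes were small and unstable. For benzo[a]pyrene against unexposed (2 genes) they were 0 without rescaling, 0 with a pseudocount of 0.1, 1 with no filter, 0 with a filter at FPKM 5, 0 with only the groups compared, 0 without the libraries richest in ribosomal RNA and 0 to 46 with 1 library left out, the 46 without benzo[a]pyrene library 3. For the mixture against benzo[a]pyrene (5 genes) they were 3 without rescaling, 2 with the filter at FPKM 5, 0 with only the groups compared, 0 without those libraries and 0 to 28 with 1 library left out, the 28 again without benzo[a]pyrene library 3. For any difference among the groups (5 genes) they were 2, 1 with the pseudocount of 0.1, 3 with no filter, 1 with the filter at FPKM 5, 0 without those libraries and 0 to 20. With only the groups compared, 1 gene was called for the mixture against unexposed and 1 against triclosan. At the filter of FPKM 5 lcat could not be tested.

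Replicate numbers in the titles did not pair the livers: of 24 same-number pairs 6 had a correlation over 0.1 (range -0.25 to 0.26), and 4 of 16 libraries were closest to their own number. With a replicate block the counts were 0 for benzo[a]pyrene against unexposed, 0 for the mixture against benzo[a]pyrene and 0 for any difference. The 33 of 37 pathway genes below 0 for benzo[a]pyrene were 33 with the block, and the count kept to within 1.5 times under every alternative run (23 of 24 with the filter at FPKM 5). The 29 above 0 for the mixture against benzo[a]pyrene ranged from 20 of 24 with that filter to 33. These pathway counts were chosen after seeing the data. Depth limits lcat most, at 8 to 151 implied fragments per library.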
